A study of Mus musculus with 45 samples.

Results

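Undifferentiated male E14tg2a embryonic stem cells (ESCs) kept in 2iL were compared with the same line kept in serum and LIF (SL), in the 4 day 0 libraries among the 45 RNA-seq libraries of a differentiation time course. The 4 libraries were chosen by their titles, and no measured value entered the choice. E14tg2a is a wild-type ESC line derived from mice of the 129/Ola strain, and both groups were grown on gelatin without feeder cells. 2iL is serum-free N2B27 medium with the GSK3 inhibitor CHIR99021, the MEK inhibitor PD0325901 and the cytokine LIF, and SL is GMEM with fetal bovine serum and LIF. No cells had been induced to differentiate. The 3 2iL libraries are the starting points of the EB, EpiSC and neural time courses and are called 2iL EB, 2iL EpiSC and 2iL Neural by those names, and values in 2iL are always given in that order. A single SL library is the starting point of all SL time courses. The study calls its sequenced time courses independent, which may mean independent of its qRT-PCR experiments. The sources do not say whether the undifferentiated 2iL libraries came from separate cultures. The p-values therefore measure the spread between these libraries, which may be technical. The cells were in 2iL for only a few passages before differentiation, and with 1 SL library the medium cannot be told apart from anything else that sets that library apart.

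ESCs self-renew when LIF keeps Stat3 active and signals that drive them out of the naive state are held in check. The MEK inhibitor of 2iL blocks the ERK pathway, which otherwise switches on its own feedback inhibitors, and the GSK3 inhibitor stabilises beta-catenin, which switches on Wnt target genes. Serum brings growth factors, BMP activity and lipids in place of defined components, and cultures in serum are known to hold cells in mixed states, some with genes of other early lineages.

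The 2iL libraries held from 15029020 to 33625958 reads on named genes and SL held 18229456. Values are given as CPM, read counts scaled to a common library size with TMM factors, and 3 counts correspond to between 0.0882 and 0.195 CPM. Pearson's r of log2(CPM + 1), across tested genes, which are not independent replicates, was 0.991 for each pair of 2iL libraries and between 0.928 and 0.934 for the pairs with SL. No 2 libraries agreed within sampling noise. Chi-square per degree of freedom was 31 for 2iL EB with 2iL EpiSC, 112.5 for 2iL EB with 2iL Neural and 89.6 for 2iL EpiSC with 2iL Neural. For the pairs with SL it was 174.9 with 2iL EB, 133.1 with 2iL EpiSC and 97.5 with 2iL Neural. By this measure the 2iL pairs were not uniformly closer than the pairs with SL. It rises with read depth, however, and depth differed between the libraries. The median absolute difference in log2(CPM + 1) was 0.174 to 0.184 for the 2iL pairs. For the pairs with SL it was 0.400 to 0.440. The 10 genes with the most reads took between 9.15% and 16.2% of a library. The pluripotency factors Pou5f1, at 482, 551 and 572 CPM in 2iL and 697 in SL, and Sox2, at 223, 265 and 291 CPM in 2iL and 252 in SL, were expressed in all 4 libraries.

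The adjusted p of edgeR's quasi-likelihood test was under 0.05, the threshold used throughout, for 4600 of 14947 genes tested, or 30.8%. Of these genes, 2012 were higher in 2iL (13.5% of the genes tested) and 2588 were lower (17.3%). More than 2-fold differences were found for 1105 of the higher genes and 2027 of the lower genes. The balance differed with abundance. Among genes with a mean of both media over 10 CPM, 1451 were higher and 1078 lower in 2iL, of 8970 tested. Among genes at or below 10 CPM, 561 were higher and 1510 lower. With library totals alone in place of TMM factors, the balance over 10 CPM turned to 1069 higher and 1166 lower genes, and with only genes of at least 10 CPM in either medium it turned to 1082 and 1197. The balance at or below 10 CPM kept its direction in all 10 alternatives. Each alternative keeps the single SL library against more 2iL libraries, so none can show how far this unequal design shapes that balance. This was not tested. Genes higher in 2iL together took 168931, 168460 and 163488 CPM in 2iL and 84504 CPM in SL, and genes lower in 2iL took 38589, 38101 and 40474 CPM in 2iL and 87815 in SL.

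**Figure D1:**
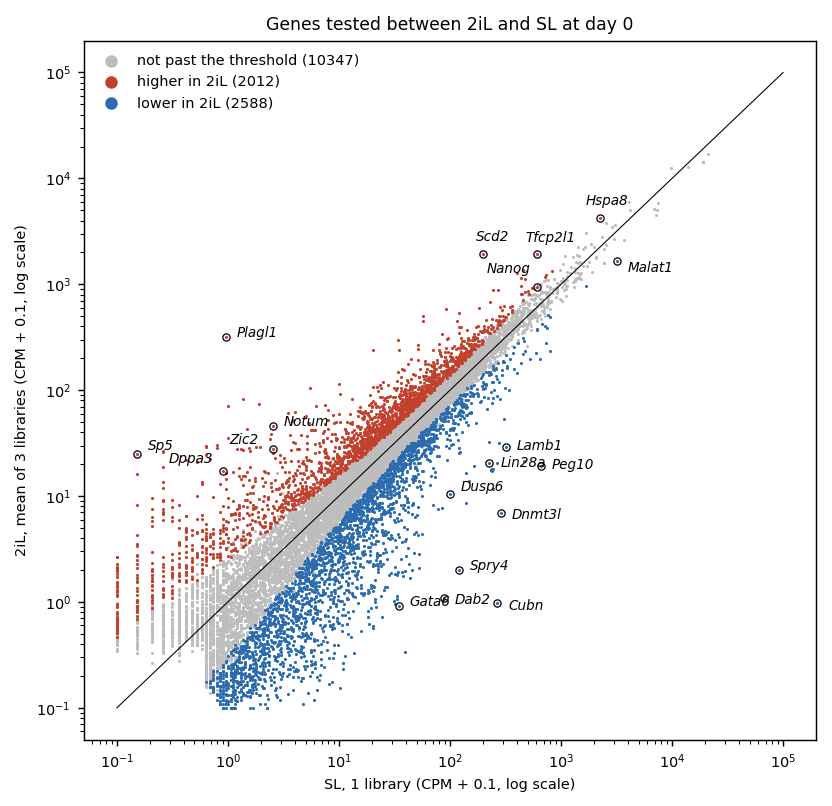
Each point is one of the 14947 genes tested, with its CPM in the SL library on the x axis and the mean CPM of the 3 2iL libraries on the y axis, both with 0.1 added and on log scales, and the line marks equal values. Genes higher in 2iL (2012) are red, genes lower in 2iL (2588) are blue and other genes are grey; circles mark named genes, such as Plagl1 and Sp5 far above the line and Cubn and Spry4 far below it.

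With 1 library in SL, the fit took its spread from 2iL only. With the spread estimated over all 45 libraries, in which differences between conditions at later days enter, 3047 genes differed, and 2573 of the 4600 calls were kept in the same direction. Which calls this wider spread ended is therefore given for each group of genes. An exact permutation test of a single gene with 3 libraries against 1 cannot go below p = 0.25, two-sided. As a description with no model, the SL value lay above all 3 2iL libraries for 40.3% of the genes tested and below all 3 for 39.0%.

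**Figure D2:**
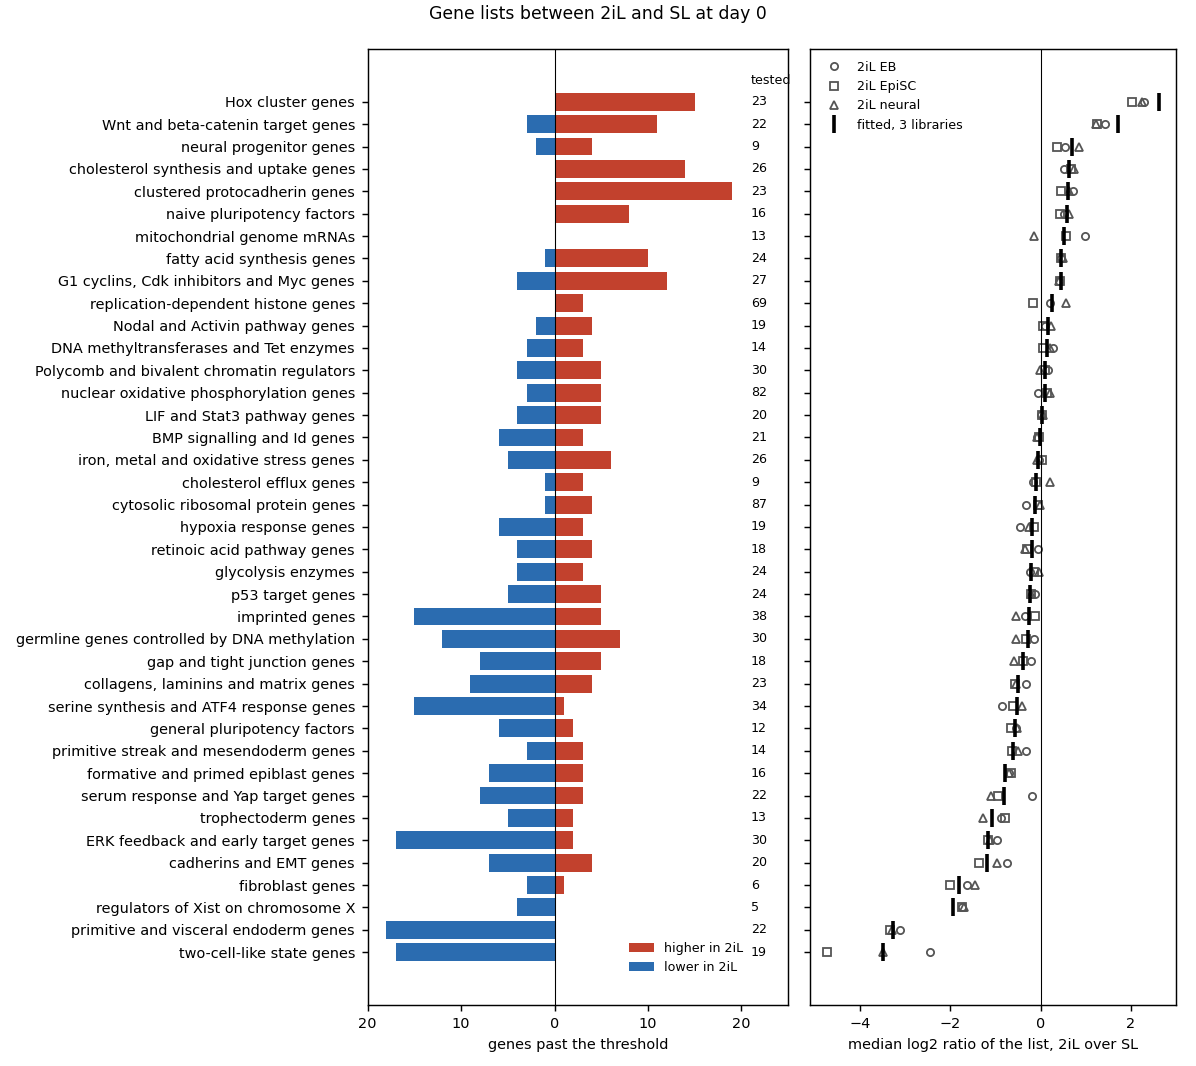
Left, for each of 39 gene lists, the number of members higher (red, to the right) and lower (blue, to the left) in 2iL past the threshold, with the number tested. Right, the median log2 ratio of each list's tested members for each 2iL library over SL, with 0.1 CPM added (open symbols), and from the fit of all 3 libraries (bars), so that Hox and Wnt target genes stand at the top and two-cell-like and endoderm genes at the bottom, where the 3 2iL libraries lie farthest apart for the two-cell-like genes.

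ERK feedback and early target genes were mostly lower in 2iL. Of 30 tested, 17 were lower and 2 were higher (63.3% called, against 30.8% of all genes). The median log2 fold change of the list was -1.17, against 0.00757 over all genes tested. Log2 fold changes are of 2iL over SL, with their standard error (SE). Spry4, an inhibitor of receptor tyrosine kinase signalling, was at 1.7, 1.63 and 2.39 CPM in 2iL and 119.6 in SL (log2 fold change -5.97, SE 0.20, adjusted p = 4.11e-06 in edgeR). Its relative Spry2 was at 27.8, 16.8 and 23.8 CPM in 2iL and 52.6 in SL (log2 fold change -1.2). Spry1, the other member on the list, was at 4.82, 2.74 and 5.63 CPM in 2iL and 12.3 in SL (log2 fold change -1.47). All 3 Sprouty genes were thus lower in 2iL, by unequal amounts. The ERK phosphatase Dusp6 was at 7.26, 10.9 and 12.6 CPM in 2iL and 99.8 in SL (log2 fold change -3.3, SE 0.24, adjusted p = 4.94e-05 in edgeR). Dusp4, another MAP kinase phosphatase, was at 0.793, 0.912 and 1.2 CPM in 2iL and 33.4 in SL (log2 fold change -5.13). In each of these genes the SL library lay above all 3 2iL libraries. Egr1, an immediate early transcription factor, was at 0.0882, 0.195 and 0.349 CPM in 2iL and 11.3 in SL (log2 fold change -5.83). Fos, another, was at 1.41, 0.912 and 0.946 CPM in 2iL and 16.6 in SL (log2 fold change -3.88). Jun and Myc were lower as well, with log2 fold changes of -3.22 and -2.36, at lower counts. Not every gene counted as an ERK target followed. Etv5, an Ets factor, was at 522, 555 and 589.9 CPM in 2iL and 403 in SL and did not pass the threshold (log2 fold change 0.46, adjusted p = 0.0938 in edgeR), whereas its relative Etv4 was lower in 2iL, at 75.4, 69.6 and 83.1 CPM in 2iL and 117 in SL (log2 fold change -0.62). Ccnd1, cyclin D1, was at 116, 119.7 and 78.5 CPM in 2iL and 31.1 in SL and was higher in 2iL (log2 fold change 1.75, SE 0.27, adjusted p = 0.00164 in edgeR). Etv1 was higher as well (log2 fold change 1.25). The spread over all 45 libraries ended 8 of the 19 calls of this list, among them those of Etv1, Etv4, Myc, Spry1 and Spry2. Etv5 passed the threshold with DESeq2's Wald test and with the spread over the day 0 and day 1 libraries.

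Of 22 Wnt and beta-catenin target genes tested, 11 were higher and 3 lower in 2iL (63.6% called, against 30.8% of all genes). The median log2 fold change of the list was 1.72. Notum, a secreted Wnt inhibitor, was at 45.3, 45.7 and 45.3 CPM in 2iL and 2.45 in SL (log2 fold change 4.21, SE 0.23, adjusted p = 1.95e-05 in edgeR). Axin2, a scaffold of the complex that degrades beta-catenin, was at 79.9, 61.6 and 66.9 CPM in 2iL and 15.3 in SL (log2 fold change 2.19, SE 0.22, adjusted p = 2.04e-04 in edgeR). Both are feedback inhibitors of the pathway, and in both the 2iL libraries lay far above SL. Znrf3, a ligase that removes Wnt receptors and so acts the same way, was at 39.6, 24.3 and 33.4 CPM in 2iL and 16.3 in SL (log2 fold change 1.0). The receptor Tnfrsf19 was at 31.9, 35.2 and 36.7 CPM in 2iL and 2.29 in SL. The transcription factor Cdx1 was at 71, 42.9 and 72.2 CPM in 2iL and 3.88 in SL. The primitive streak factor T was at 4.82, 1.5 and 2.19 CPM in 2iL and 0.106 in SL, and Cdx2, a factor of trophectoderm and posterior tissues, was at 4.88, 1.37 and 2.34 CPM in 2iL and 0.319 in SL. Both were higher in 2iL, with the highest value in the 2iL EB library, and rest on few reads in SL. For T, with 2 reads in SL, the ratio of the pooled 2iL reads to SL was 31.3, with a 95% exact binomial interval from 8.56 to 259.6. Tcf7 and Lef1, DNA-binding partners of beta-catenin, had log2 fold changes of 0.69 and 1.86 and did not pass the threshold (adjusted p = 0.0788 and 0.0646 in edgeR). Lgr4, an R-spondin receptor, was at 51.4, 56.5 and 55.4 CPM in 2iL and 60.1 in SL, with a log2 fold change of -0.14. The Wnt receptor Fzd7 was lower in 2iL, at 39.6, 26.5 and 48.5 CPM in 2iL and 69.8 in SL. So was Nkd2, an inhibitor of Dishevelled, at 0.382, 0.717 and 0.249 CPM in 2iL and 2.71 in SL. When the spread came from all 45 libraries, 8 of the 14 calls of this list fell away, among them those of Cdx1, Cdx2, Fzd7, T and Tnfrsf19. The call of Fzd7 was also lost without the 2iL EB library. Lef1 passed the threshold with DESeq2's Wald test, with no filter on low counts, without the 2iL EpiSC library and without the 2iL Neural library. Tcf7 passed the threshold with no filter on low counts, without the 2iL EpiSC library and without the 2iL Neural library.

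Promoters of the Wnt list were searched on both strands for the TCF element CTTTGAT, in windows from 250 bases before to 50 after each RefSeq start, 300 bases in all. It was found in 2 of 25 windows (8.0%), those of Sp5 and Tnfrsf19, against 2.49% of 13748 windows of tested genes. Both stretches are shown, as the only matches in this list. Sp5, a transcription factor, was at 29.2, 20.6 and 25 CPM in 2iL and 0.0532 in SL (adjusted p = 2.70e-05 in edgeR). The SL value is 1 read, and the ratio of the pooled 2iL reads to it was 489.8, with a 95% exact binomial interval from 87.80 to 19357. Capitals mark the element or its reverse complement. The Sp5 stretch is on the plus strand, chr2:70474779-70474865, the Tnfrsf19 stretch on the minus strand, chr14:61038143-61038229, both on GRCm38.p6. For the other 15 genes with a window, no match says only that these letters are not in it.
Sp5: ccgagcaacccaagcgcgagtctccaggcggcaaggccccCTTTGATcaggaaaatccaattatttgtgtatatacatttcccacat
Tnfrsf19: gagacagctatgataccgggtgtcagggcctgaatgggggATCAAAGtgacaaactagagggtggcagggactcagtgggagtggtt

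Among BMP signalling and Id genes, 3 of 21 tested were higher and 6 lower in 2iL, with a median of -0.01. That is 42.9% called, against 30.8% of all genes. The lower genes were led by Id1, an inhibitor of basic helix-loop-helix factors and a direct BMP target, at 2.09, 2.02 and 2.44 CPM in 2iL and 42.8 in SL (log2 fold change -4.29, SE 0.21, adjusted p = 1.86e-05 in edgeR). Id2 was at 1.26, 1.56 and 0.598 CPM in 2iL and 8.41 in SL and Id3 at 1.59, 3.06 and 2.84 CPM in 2iL and 6.71 in SL, with log2 fold changes of -2.88 and -1.45. Id4 was higher in 2iL, at 9.26, 10.2 and 12.6 CPM in 2iL and 4.42 in SL, so the Id genes were not called in 1 direction. The ligand Bmp4 was lower in 2iL, at 3.0, 1.17 and 1.94 CPM in 2iL and 16.3 in SL. The receptor Acvr1 was higher, at 9.43, 8.73 and 8.52 CPM in 2iL and 2.61 in SL. The effectors Smad1 and Smad5 and the receptor Bmpr1a had log2 fold changes of -0.14, -0.01 and 0.24 and did not pass the threshold. In the fit with all 45 libraries, 7 of the 9 calls of this list were lost, among them those of Id1, Id2, Id3 and Id4. The call of Id3 was also lost with the spread over the day 0 and day 1 libraries.

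Of 19 Nodal and Activin pathway genes tested, 4 were higher and 2 lower, or 31.6% called, near the 30.8% of all genes. Lefty2, a Nodal antagonist, was at 27.9, 24 and 28.3 CPM in 2iL and 1.49 in SL (log2 fold change 4.16, SE 0.28, adjusted p = 3.92e-05 in edgeR). Its neighbour Lefty1 was at 7.05, 4.76 and 8.52 CPM in 2iL and 1.06 in SL. The ligand Nodal itself was at 52.1, 51.9 and 55.4 CPM in 2iL and 47.2 in SL, with a log2 fold change of 0.17 (adjusted p = 0.44 in edgeR), although the SL value lay below all 3 2iL values. Gdf3, a related ligand, was at 85, 86.1 and 86.2 CPM in 2iL and 27.2 in SL, and the effector Smad3 was at 37.5, 55.5 and 45.3 CPM in 2iL and 14.3 in SL, both higher in 2iL. Inhbb, which encodes an Activin subunit, was at 11, 11.5 and 12.4 CPM in 2iL and 40.1 in SL. Tdgf1, the Nodal co-receptor Cripto, was at 189, 239 and 231 CPM in 2iL and 450.4 in SL. Both were lower in 2iL. Taking the spread from all 45 libraries ended 5 of the 6 calls of this list, those of Gdf3, Inhbb, Lefty1, Lefty2 and Tdgf1. The calls of Inhbb, Lefty1, Lefty2 and Tdgf1 were also lost with the spread over the day 0 and day 1 libraries. Of the 6 calls of the Nodal and Activin pathway genes, 4 were lost with the spread over the day 0 and day 1 libraries.

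LIF was in both media. Of 20 LIF and Stat3 pathway genes, 5 were higher and 4 lower in 2iL (45% called, against 30.8% of all genes). The median was 0.03. The signalling receptor Il6st was at 189.9, 201 and 181 CPM in 2iL and 91.2 in SL and Stat3 at 113, 123 and 123 CPM in 2iL and 79.7 in SL, both higher. The LIF receptor Lifr, at 188, 199.5 and 151 CPM in 2iL and 184 in SL, did not pass the threshold (log2 fold change -0.03). Socs3, the feedback inhibitor of the pathway, was lower in 2iL, at 84.9, 74.5 and 58.2 CPM in 2iL and 126 in SL. So was the kinase gene Pim3, at 50.7, 61.3 and 72.1 CPM in 2iL and 149 in SL. Members were thus called in both directions. With the spread over all 45 libraries, 7 of the 9 calls of this list were lost, among them those of Il6st, Socs3 and Stat3. The call of Socs3 was also lost with the spread over the day 0 and day 1 libraries, and that of Stat3 with library totals alone.

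**Figure D3:**
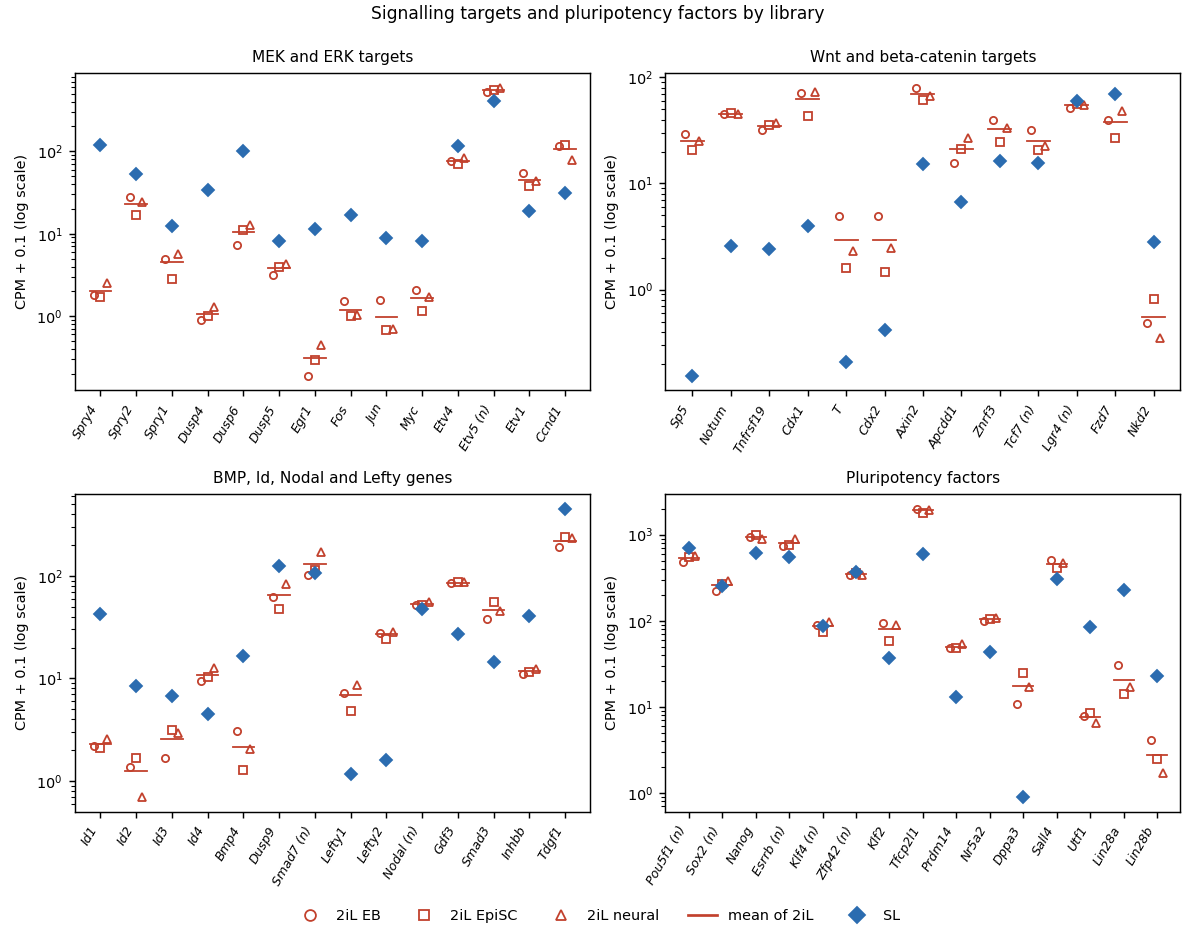
CPM with 0.1 added, on log axes, of signalling targets and pluripotency factors, with the 3 2iL libraries as open red symbols, their mean as a red line and the SL library as a blue diamond; (n) marks genes that did not pass the threshold. Spry4, Dusp4 and Egr1 lie below SL in all 3 2iL libraries and Sp5, Notum and Lefty2 above it, while Pou5f1, Sox2, Klf4 and Zfp42 did not pass the threshold.

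The factors of the naive network were higher in 2iL or did not pass the threshold. Of 16 tested, 8 were higher (50% called, against 30.8% of all genes). None was lower in edgeR (2 at an unadjusted p under 0.05 and 0 called by DESeq2), and the median log2 fold change was 0.58. In the best counted of these genes the differences were below 4-fold. Tfcp2l1, a Stat3 target that sustains self-renewal, was at 2000.2, 1804 and 1929 CPM in 2iL and 604 in SL (log2 fold change 1.66, SE 0.25, adjusted p = 0.0014 in edgeR). Nr5a2, a nuclear receptor, was at 100.1, 104 and 109 CPM in 2iL and 43.8 in SL. Prdm14, a repressor of Fgf signalling and of de novo methyltransferase genes, was at 47.6, 48 and 54.3 CPM in 2iL and 12.9 in SL. Klf2 was at 94.4, 58 and 88.8 CPM in 2iL and 37.1 in SL. Nanog was at 928, 986 and 893 CPM in 2iL and 613 in SL, which passed the threshold narrowly (log2 fold change 0.61, SE 0.20, adjusted p = 0.0496 in edgeR). Esrrb was at 731, 753 and 892 CPM in 2iL and 544 in SL and did not pass it (log2 fold change 0.54, adjusted p = 0.0836 in edgeR). Klf4, at 88.6, 73.3 and 96.4 CPM in 2iL and 87.1 in SL, and Zfp42, the naive marker Rex1, at 336, 358 and 341 CPM in 2iL and 371 in SL, had log2 fold changes of -0.02 and -0.11. The largest difference was in Dppa3, a maternal factor of the germline, at 10.7, 24.4 and 16.7 CPM in 2iL and 0.798 in SL (log2 fold change 4.41, SE 0.58, adjusted p = 8.09e-04 in edgeR). The spread over all 45 libraries ended 7 of the 8 calls of this list, among them those of Klf2, Nanog, Nr5a2, Prdm14 and Tfcp2l1. The call of Nanog was also lost with DESeq2 size factors, with library totals alone, with only genes of at least 10 CPM, with the spread over the day 0 and day 1 libraries, without the 2iL EB library and without the 2iL EpiSC library. Esrrb passed the threshold with DESeq2's Wald test and with the spread over the day 0 and day 1 libraries.

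Of 12 general pluripotency factors, 2 were higher and 6 lower in 2iL (66.7% called, against 30.8% of all genes). The core factors Pou5f1 and Sox2 had log2 fold changes of -0.38 (adjusted p = 0.16 in edgeR) and 0.04 and did not pass the threshold. Lin28a, an RNA-binding protein that blocks let-7 maturation, was at 30.4, 14.1 and 16.8 CPM in 2iL and 226 in SL (log2 fold change -3.45, SE 0.32, adjusted p = 1.41e-04 in edgeR). Its relative Lin28b was at 4.08, 2.41 and 1.59 CPM in 2iL and 22.6 in SL (log2 fold change -3.02). Utf1, a chromatin factor of pluripotent cells, was at 7.76, 8.4 and 6.48 CPM in 2iL and 85.5 in SL (log2 fold change -3.5, SE 0.18, adjusted p = 1.86e-05 in edgeR). In these 3 genes the SL value was above every 2iL value. Dppa4 was lower, at 37.9, 42.5 and 44.7 CPM in 2iL and 99 in SL. Its partner Dppa2, at 140.2, 86.8 and 110.0 CPM in 2iL and 105 in SL, did not pass the threshold (log2 fold change 0.10). The zinc finger factor Sall4 was higher, at 510.3, 408 and 463 CPM in 2iL and 305 in SL, and so was L1td1, an RNA-binding protein derived from a LINE element, at 286, 251 and 247 CPM in 2iL and 178 in SL. When the spread came from all 45 libraries, 6 of the 8 calls of this list fell away, among them those of Dppa4, L1td1 and Sall4. The call of L1td1 was also lost with library totals alone, with only genes of at least 10 CPM, without the 2iL EB library and without the 2iL EpiSC library, and that of Sall4 with DESeq2 size factors, with library totals alone, with only genes of at least 10 CPM and without the 2iL EB library.

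Of 16 formative and primed epiblast genes tested, 3 were higher and 7 lower in 2iL (62.5% called, against 30.8% of all genes). Among the 7 lower were Dnmt3a, Dnmt3b and Dnmt3l, also on the DNA methyltransferase list below, and Etv4, also on the ERK list. Lin28b, given above beside Lin28a, was another lower gene of this list. The factors of this list split. Zic2, a zinc finger factor of the epiblast, was at 30.6, 21.2 and 31.5 CPM in 2iL and 2.45 in SL (log2 fold change 3.5, SE 0.33, adjusted p = 1.67e-04 in edgeR). Its relative Zic5 was higher too, at 35, 33 and 38.8 CPM in 2iL and 9.31 in SL. Pou3f1 was lower at low counts, at 0.911, 0.651 and 0.548 CPM in 2iL and 3.46 in SL. Otx2, a factor that drives exit from the naive state, was at 2.79, 6.19 and 2.99 CPM in 2iL and 9.21 in SL and did not pass the threshold (log2 fold change -1.24, adjusted p = 0.0565 in edgeR). Grhl2, an epithelial factor, was lower, at 4.2, 3.91 and 5.03 CPM in 2iL and 14.6 in SL. Fgf5 had between 0.0588 and 0.213 CPM in the 4 libraries, near the level of 3 counts, and was not tested. In the fit with all 45 libraries, 6 of the 10 calls of this list were lost, among them those of Grhl2, Pou3f1 and Zic5. The calls of Grhl2 and Pou3f1 were also lost with the spread over the day 0 and day 1 libraries. Otx2 passed the threshold with library totals alone, with no filter on low counts, without the 2iL EpiSC library and without the 2iL Neural library.

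The de novo DNA methyltransferases and their cofactor were lower in 2iL, and no other gene of the list was. Dnmt3l, the cofactor of the de novo methyltransferases (ENSMUSG00000000730, chromosome 10 of GRCm38, 78041947 to 78063622), was at 10.6, 3.84 and 5.93 CPM in 2iL and 288 in SL (log2 fold change -5.35, SE 0.36, adjusted p = 3.76e-05 in edgeR). The de novo enzyme gene Dnmt3a was at 26.9, 14.7 and 29.1 CPM in 2iL and 55.2 in SL (log2 fold change -1.22). Dnmt3b was at 119, 97.6 and 97.6 CPM in 2iL and 205 in SL (log2 fold change -0.97). All 3 were below SL in every 2iL library. The maintenance enzyme Dnmt1 was at 519.8, 553 and 534 CPM in 2iL and 382 in SL and did not pass the threshold (log2 fold change 0.49). Its cofactor Uhrf1 was higher in 2iL, at 694, 796 and 930.1 CPM in 2iL and 439 in SL. Tet1, Tet2 and Tet3, which oxidise methylcytosine, had log2 fold changes of -0.56, 0.46 and 0.40 and did not pass the threshold. Among all 14 genes of the list, 3 were higher and 3 lower (42.9% called, against 30.8% of all genes). Taking the spread from all 45 libraries ended 2 of the 6 calls of this list, among them that of Dnmt3b. The call of Dnmt3b was also lost with the spread over the day 0 and day 1 libraries. Dnmt1 passed the threshold with DESeq2's Wald test, with the spread over all 45 libraries and with the spread over the day 0 and day 1 libraries. Tet1 passed the threshold with DESeq2's Wald test and without the 2iL EB library. Tet2 passed the threshold with DESeq2's Wald test.

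Of 30 Polycomb genes, 5 were higher and 4 lower, with a median of 0.10. That is 30% called, near the 30.8% of all genes. The core subunits of PRC2, the complex that methylates histone H3 lysine 27, did not pass the threshold, with log2 fold changes of 0.26 for Ezh2, 0.30 for Suz12 and -0.34 for Eed. Some of its accessory subunits were lower in 2iL. Phf19, which binds methylated histone H3, was at 0.529, 1.37 and 1.94 CPM in 2iL and 25.7 in SL (log2 fold change -4.4, SE 0.45, adjusted p = 2.36e-04 in edgeR). Jarid2, which helps to recruit the complex, was at 212, 177 and 198 CPM in 2iL and 522 in SL (log2 fold change -1.42, SE 0.16, adjusted p = 4.22e-04 in edgeR). Mtf2, at 468, 525 and 467 CPM in 2iL and 550.1 in SL, did not pass the threshold (log2 fold change -0.18). In PRC1, the ubiquitin ligase complex, Bmi1 was higher, at 41.4, 46.9 and 36 CPM in 2iL and 11.4 in SL, and Phc1 lower, at 173, 169 and 199 CPM in 2iL and 439 in SL. With the spread over all 45 libraries, 6 of the 9 calls of this list were lost, among them those of Bmi1 and Phc1.

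Germline genes that DNA methylation is known to silence moved both ways. In 2iL, 7 of 30 were higher and 12 lower (63.3% called, against 30.8% of all genes). The lower group held genes of the piRNA pathway and of meiosis. Among the piRNA factors, Mael was at 2.44, 1.56 and 1.64 CPM in 2iL and 45.4 in SL (log2 fold change -4.55, SE 0.25, adjusted p = 2.03e-05 in edgeR). The Piwi protein gene Piwil2 was at 2.06, 1.5 and 1.54 CPM in 2iL and 33.4 in SL. The helicase genes Ddx4, at 2.62, 2.21 and 2.44 CPM in 2iL and 26.9 in SL, and Mov10l1, at 2.44, 2.93 and 2.74 CPM in 2iL and 23.4 in SL, were lower to a similar extent (log2 fold changes -3.46 and -3.12). Sycp3, a protein of the synaptonemal complex, was at 1.97, 2.74 and 2.59 CPM in 2iL and 36 in SL (log2 fold change -3.91, SE 0.24, adjusted p = 2.48e-05 in edgeR). Taf7l, a germ cell transcription factor, was at 0.588, 1.04 and 0.697 CPM in 2iL and 19.3 in SL. For all of these the SL library was far above the 3 2iL libraries, which lay close together. Higher in 2iL was Tuba3a, a testis tubulin, at 234, 251 and 252 CPM in 2iL and 51.8 in SL. Rpl10l, a retrocopy of the ribosomal protein gene Rpl10, was at 113, 129 and 120.1 CPM in 2iL and 24.6 in SL. The X-linked Xlr4a was at 19.6, 25.8 and 17.6 CPM in 2iL and 0.426 in SL. Dazl, at 85.7, 115 and 62.4 CPM in 2iL and 50.7 in SL, and Hormad1, at 34.2, 50.2 and 37.6 CPM in 2iL and 36.3 in SL, did not pass the threshold. The spread over all 45 libraries ended 6 of the 19 calls of this list, among them that of Tuba3a. Dazl passed the threshold with DESeq2's Wald test, with no filter on low counts and without the 2iL Neural library.

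The windows of 27 of the 30 germline genes, 33 in all, were searched for the E-box CACGTG, the same on both strands, and for the E2f6 element GGCGGGAA on both strands, the binding sites of repressors of germline genes. The E-box was in 16 of 33 windows (48.5%), against 9.8% of windows of tested genes, and the E2f6 element in 6 (18.2%), against 3.93%. Of the 12 genes with an E-box, 8 were lower in 2iL, 1 was higher and 3 did not pass the threshold, and of the 15 without one, 3 were lower, 5 higher and 7 did not pass it. This is a description of letters in these windows, not of binding. Stretches of 6 of the 8 lower genes are shown, with the E-box in capitals. They lie on GRCm38.p6 at chr1:166238922-166238994 for Mael, chrX:134476494-134476579 for Taf7l and chr13:112652294-112652379 for Ddx4, on the minus strand, and at chr10:88459483-88459589 for Sycp3, chr15:88982744-88982793 for Mov10l1 and chr19:56826158-56826243 for Tdrd1, a further piRNA factor, on the plus strand.
Mael: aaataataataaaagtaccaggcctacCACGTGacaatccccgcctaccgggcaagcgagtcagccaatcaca
Taf7l: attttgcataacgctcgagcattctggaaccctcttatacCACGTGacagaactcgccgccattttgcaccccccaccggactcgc
Sycp3: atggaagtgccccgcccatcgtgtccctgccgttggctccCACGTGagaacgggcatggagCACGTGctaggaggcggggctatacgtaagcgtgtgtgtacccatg
Mov10l1: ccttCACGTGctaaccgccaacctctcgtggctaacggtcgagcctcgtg
Ddx4: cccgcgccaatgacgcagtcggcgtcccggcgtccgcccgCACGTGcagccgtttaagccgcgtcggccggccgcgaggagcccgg
Tdrd1: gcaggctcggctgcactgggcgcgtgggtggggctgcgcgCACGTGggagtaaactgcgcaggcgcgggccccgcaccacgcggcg

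Of 38 imprinted genes tested, 5 were higher and 15 lower in 2iL (52.6% called, against 30.8% of all genes). The median was -0.25. The extremes were of opposite sign. Plagl1, a zinc finger factor expressed from the paternal allele (ENSMUSG00000019817, chromosome 10 of GRCm38, 13060504 to 13131694), was at 393, 268 and 282 CPM in 2iL and 0.851 in SL (log2 fold change 8.52, SE 0.42, adjusted p = 1.86e-05 in edgeR). Peg10, a retrotransposon-derived gene that is paternally expressed (ENSMUSG00000092035, chromosome 6 of GRCm38, 4747306 to 4760517), was at 30, 13.4 and 14.4 CPM in 2iL and 663 in SL (log2 fold change -5.08, SE 0.35, adjusted p = 4.08e-05 in edgeR). Neighbours of Peg10 on chromosome 6 were lower too. Ppp1r9a was at 12.9, 10.5 and 10.9 CPM in 2iL and 54.4 in SL, and Sgce was at 1.7, 1.04 and 1.39 CPM in 2iL and 8.09 in SL. H19 was at 2.67, 0.586 and 0.498 CPM in 2iL and 15.8 in SL, and Igf2, which shares its control region, was at 2.47, 0.13 and 0.299 CPM in 2iL and 8.78 in SL. Both were lower in 2iL at low counts, with their highest 2iL value in the 2iL EB library. Phlda2, a gene that restrains placental growth, was at 0.999, 0.391 and 2.09 CPM in 2iL and 20 in SL. Cdkn1c, a Cdk inhibitor of the same imprinted domain, was at 0.882, 0.13 and 0.847 CPM in 2iL and 8.78 in SL. Both were lower in 2iL, whereas Kcnq1ot1, the noncoding RNA of that domain, had no read in SL and 0.705, 0.586 and 0.548 CPM in 2iL, at least 3.84-fold higher when SL is set to 3 counts. Meg3, Rian and Peg3 did not pass the threshold, and in these the 2iL EpiSC library stood apart, as in Rian with 191, 506 and 265 CPM in 2iL and 249 in SL. No allele was resolved in these counts. When the spread came from all 45 libraries, 7 of the 20 calls of this list fell away, among them those of H19 and Igf2. The call of Igf2 was also lost with DESeq2's Wald test.

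Genes of the two-cell-like state, which a few cells of an ESC culture enter at a time, were lower in 2iL. Of 19 tested, 17 were lower (89.5% called, against 30.8% of all genes). None was higher in edgeR (0 at an unadjusted p under 0.05 and 0 called by DESeq2). The median was -3.49, and the SL value was above all 3 2iL values for 18 genes. Zscan4c, which takes part in telomere maintenance, was at 31.7, 5.15 and 12.4 CPM in 2iL and 140.0 in SL (log2 fold change -3.05, SE 0.60, adjusted p = 0.00541 in edgeR). Zscan4f was at 37.1, 5.54 and 15 CPM in 2iL and 165 in SL, and Zscan4d was at 10.2, 0.977 and 3.14 CPM in 2iL and 40.5 in SL. In each, the 2iL EB library was the highest and the 2iL EpiSC library the lowest of the 2iL libraries. Gm4340 was at 31.8, 6.51 and 14 CPM in 2iL and 236 in SL. Zfp352, a factor of the two-cell embryo, was at 0.235, 0 and 0.0996 CPM in 2iL and 3.03 in SL. The Zscan4, Usp17l, Tdpoz and Gm4340 families hold near-identical copies that can share reads, so the values of single copies are uncertain, and Zscan4a, Zscan4e and Dub1 were not analysed here. In bulk RNA, fewer cells in a state and less RNA per cell cannot be told apart. In the fit with all 45 libraries, 9 of the 17 calls of this list were lost, among them those of Gm4340, Zscan4c, Zscan4d and Zscan4f. The calls of Zscan4c, Zscan4d and Zscan4f were also lost with DESeq2's Wald test. Of the 17 calls of the two-cell-like state genes, 6 were lost with DESeq2's Wald test.

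Primitive and visceral endoderm genes were lower in 2iL nearly throughout. Of 22 tested, 18 were lower in 2iL (81.8% called, against 30.8% of all genes). None was higher in edgeR (1 at an unadjusted p under 0.05 and 0 called by DESeq2), and the median was -3.28. Among the transcription factors, Gata6 was at 1.2, 0.651 and 0.598 CPM in 2iL and 34.4 in SL (log2 fold change -5.3, SE 0.32, adjusted p = 2.45e-05 in edgeR). Gata4 was at 1.26, 0.717 and 0.648 CPM in 2iL and 14.6 in SL. The Sox factors Sox17, at 0.705, 0.195 and 0.199 CPM in 2iL and 7.34 in SL, and Sox7, at 0.147, 0.195 and 0.0996 CPM in 2iL and 5.11 in SL, were lower too. For these 4 factors every 2iL library lay below SL. Among surface and uptake genes, Cubn (ENSMUSG00000026726, chromosome 2 of GRCm38, 13276338 to 13491813), a receptor that takes up vitamin B12 and proteins, was at 0.735, 0.391 and 1.49 CPM in 2iL and 266 in SL. Amn, which brings Cubn to the surface, was at 0.0294, 0.13 and 0.149 CPM in 2iL and 6.71 in SL, and the co-receptor Lrp2, megalin, was at 37.7, 29.4 and 27.9 CPM in 2iL and 275 in SL. Of these uptake genes Lrp2 kept the highest level in 2iL. The adaptor Dab2 was at 1.32, 1.04 and 0.598 CPM in 2iL and 88.6 in SL (log2 fold change -6.42, SE 0.27, adjusted p = 7.82e-06 in edgeR). The receptor Pdgfra was at 4.08, 0.586 and 0.897 CPM in 2iL and 39.5 in SL. Markers of later visceral endoderm were low in both media: Ttr had between 0 and 0.639 CPM and Afp between 0 and 0.266, and neither was tested. Summed over the 26 genes, the list held 429, 419 and 406 CPM in 2iL and 2249 CPM in SL. The 2iL EB library had the highest 2iL value of Pdgfra, Sox17 and Col4a1. Taking the spread from all 45 libraries ended 5 of the 18 calls of this list, among them those of Lama1 and Sparc. Lama1 and Sparc are also matrix genes.

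Matrix genes overlap with these, since the early endoderm lays down a basement membrane, and how far endoderm cells account for them was not tested. Of 23 collagen, laminin and other matrix genes tested, 9 were lower and 4 higher (56.5% called, against 30.8% of all genes). The type IV collagen gene Col4a1 was at 45.6, 8.27 and 10.6 CPM in 2iL and 461 in SL (log2 fold change -4.38, SE 0.66, adjusted p = 0.00158 in edgeR). Its neighbour Col4a2, transcribed from the same promoter region, was at 25.9, 4.43 and 4.63 CPM in 2iL and 242 in SL (log2 fold change -4.31, SE 0.70, adjusted p = 0.00217 in edgeR). In both, the 2iL EB library was the highest of the 2iL libraries. Lamb1, the laminin beta chain, was at 27.2, 38.7 and 21.2 CPM in 2iL and 316 in SL (log2 fold change -3.45, SE 0.25, adjusted p = 4.81e-05 in edgeR). The alpha chain Lama1 was at 206, 250.3 and 213 CPM in 2iL and 593 in SL (log2 fold change -1.41). The gamma chain Lamc1, at 662, 509 and 548 CPM in 2iL and 579 in SL, did not pass the threshold. The proteoglycan gene Hspg2, perlecan, was lower, at 289, 244 and 306 CPM in 2iL and 725 in SL, and so was the matrix protein gene Sparc, at 89.5, 96.9 and 114 CPM in 2iL and 342 in SL. Fibronectin, Fn1, was higher in 2iL, at 1119.8, 911 and 889 CPM in 2iL and 433 in SL. Fbln1, fibulin, was higher too, at 65.5, 44.1 and 57.8 CPM in 2iL and 24.7 in SL. With the spread over all 45 libraries, 7 of the 13 calls of this list were lost, among them those of Lama1 and Sparc.

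Other lineages were less uniform. Of 13 trophectoderm genes tested, 5 were lower and 2 higher (53.8% called, against 30.8% of all genes). The keratin Krt8, which the endoderm expresses as well, was at 5.11, 1.69 and 1.49 CPM in 2iL and 52.3 in SL, and its partner Krt18 was at 3.53, 1.11 and 0.648 CPM in 2iL and 29.4 in SL, both lower. The higher genes were Cdx2 and Tfap2c, at 62.8, 59.5 and 66.4 CPM in 2iL and 29.9 in SL. The defining genes Gcm1, Elf5, Psg17 and Prl3d1 had at most 0.373 CPM in any library. Of 14 primitive streak genes tested, 3 were higher and 3 lower (42.9% called, against 30.8% of all genes). Gsc, an organizer factor, was higher, at 5.91, 7.49 and 7.27 CPM in 2iL and 0.16 in SL. From 3 reads in SL, its ratio was 41.7, with a 95% exact binomial interval from 14.17 to 203. Eomes, at 8.64, 5.34 and 5.38 CPM in 2iL and 7.08 in SL, did not pass the threshold. Of 9 neural progenitor genes tested, 4 were higher and 2 lower (66.7% called, against 30.8% of all genes). The intermediate filament gene Nes was at 30.1, 27.6 and 25.6 CPM in 2iL and 4.31 in SL, the tubulin gene Tubb3 at 58.8, 47.8 and 64 CPM in 2iL and 16.6 in SL and the adhesion gene Ncam1 at 43, 45.5 and 47.8 CPM in 2iL and 18.3 in SL, all higher in 2iL. The homeobox gene En2 was the fourth higher gene, at 9.43, 11.7 and 10 CPM in 2iL and 1.38 in SL. Map2 and Neurod1, a factor of neuronal differentiation, at 0.911, 0.261 and 0.249 CPM in 2iL and 20.2 in SL, were lower. Sox1, the defining factor of neural progenitors, was at 3.94, 4.1 and 5.48 CPM in 2iL and 4.84 in SL and did not pass the threshold, and Neurog2 had no read. Of 6 fibroblast genes tested, 3 were lower and 1 higher (66.7% called, against 30.8% of all genes), with a median of -1.82. SL lay above all 3 2iL libraries for 5 of them. Dcn, Prrx1 and Postn, which were not tested, had at most 0.0588 CPM in any library. The spread over all 45 libraries ended 4 of 7 calls of the trophectoderm genes, 3 of 6 calls of the primitive streak and mesendoderm genes, 3 of 6 calls of the neural progenitor genes and 2 of 4 calls of the fibroblast genes, among them those of Cdx2, En2, Gsc, Ncam1, Tfap2c and Tubb3. The call of Tfap2c was also lost with the spread over the day 0 and day 1 libraries.

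**Figure D4:**
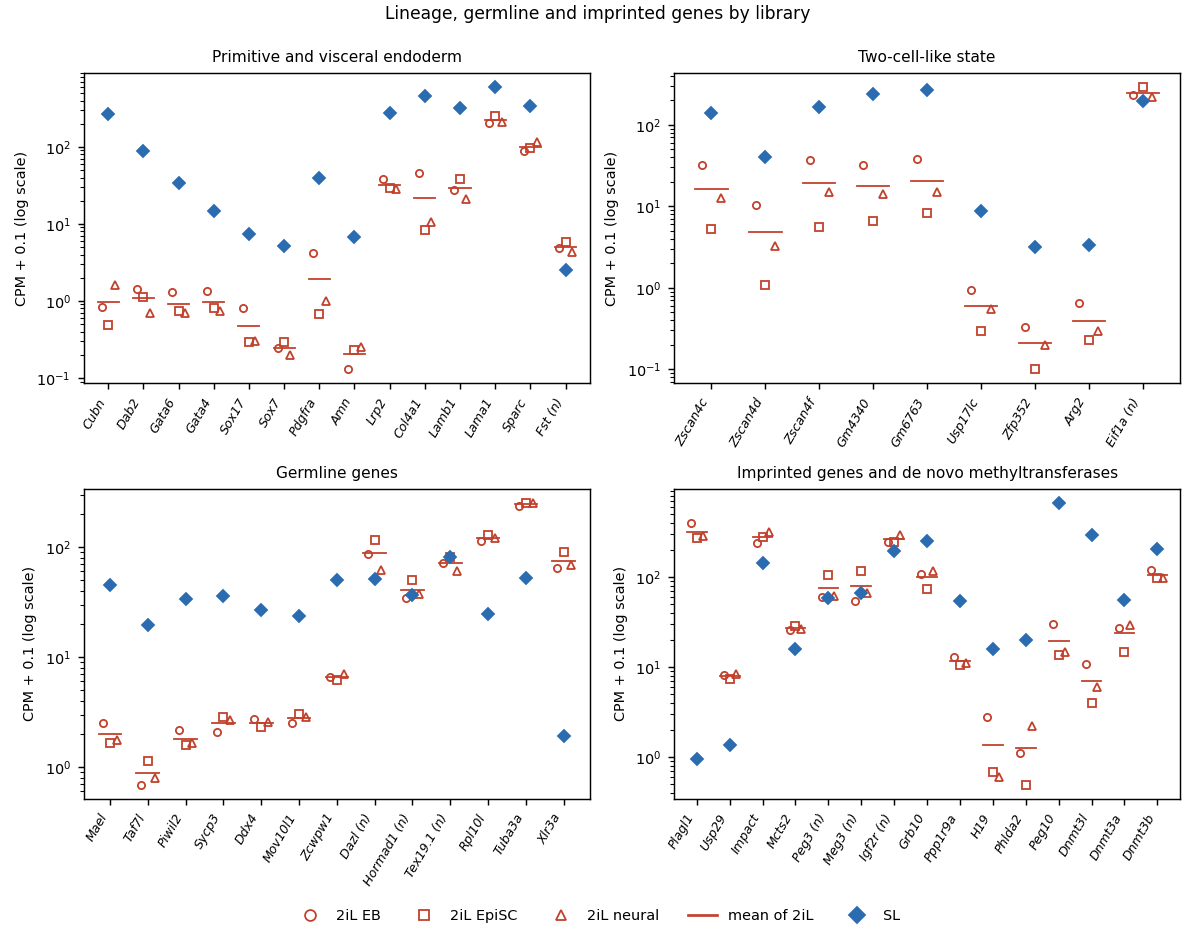
CPM with 0.1 added, on log axes, of endoderm, two-cell-like, germline and imprinted genes and the de novo methyltransferases, with the 3 2iL libraries as open red symbols, their mean as a red line and the SL library as a blue diamond; (n) marks genes that did not pass the threshold. SL lies above all 3 2iL libraries for the endoderm genes from Cubn to Sparc and for the Zscan4 genes, and the germline and imprinted panels hold genes on both sides.

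Genes of cell contacts were called in both directions. Of 20 cadherin and EMT genes, 4 were higher and 7 lower (55% called, against 30.8% of all genes). E-cadherin, Cdh1, was higher in 2iL, at 449, 423 and 405 CPM in 2iL and 279 in SL. The adhesion molecule gene Epcam was lower, at 15, 13.5 and 11.9 CPM in 2iL and 57.2 in SL, and so was P-cadherin, Cdh3, at 3.41, 9.77 and 7.67 CPM in 2iL and 25.8 in SL. Beta-catenin itself, Ctnnb1, which binds cadherins, was at 877, 942 and 946 CPM in 2iL and 886 in SL and did not pass the threshold (log2 fold change 0.06). The intermediate filament gene Vim was higher, at 225, 242 and 224 CPM in 2iL and 89.9 in SL. Among 18 gap and tight junction genes tested, 5 were higher and 8 lower (72.2% called, against 30.8% of all genes). The connexin gene Gja1 was at 20.9, 9.05 and 11.1 CPM in 2iL and 147 in SL (log2 fold change -3.4, SE 0.33, adjusted p = 1.87e-04 in edgeR) and was lower in 2iL. The claudin genes Cldn6, at 2.38, 1.17 and 1.49 CPM in 2iL and 27.9 in SL, and Cldn4, at 22.1, 28.4 and 33.6 CPM in 2iL and 66.4 in SL, which seal epithelia, were lower. The 5 junction genes higher in 2iL are not named here, and the highest log2 fold change of that list was 3.04. Of 22 serum response and Yap target genes tested, 8 were lower and 3 higher (50% called, against 30.8% of all genes). The Yap targets Ctgf, at 12, 5.34 and 9.07 CPM in 2iL and 20.8 in SL, and Cyr61, at 11.6, 14.3 and 10.6 CPM in 2iL and 27.2 in SL, were lower. The nuclear lamin gene Lmna was lower too, at 18.5, 18.4 and 15.1 CPM in 2iL and 56.8 in SL. Srf, the serum response factor, and Actb, its target, did not pass the threshold (log2 fold changes 0.26 and -0.18). When the spread came from all 45 libraries, 7 of 11 calls of the cadherins and EMT genes, 10 of 13 calls of the gap and tight junction genes and 6 of 11 calls of the serum response and Yap target genes fell away, among them those of Cdh1, Cdh3, Cldn4, Ctgf, Cyr61, Epcam and Vim. The call of Cdh1 was also lost with library totals alone, with only genes of at least 10 CPM, without the 2iL EB library and without the 2iL EpiSC library, and that of Cldn4 with the spread over the day 0 and day 1 libraries.

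Lipid synthesis genes past the threshold were higher in 2iL with 1 exception. Of 24 fatty acid synthesis genes, 10 were higher and 1 lower (45.8% called, against 30.8% of all genes), with a median of 0.46. Of 26 cholesterol synthesis and uptake genes, 14 were higher (53.8% called), with a median of 0.64. None of the cholesterol genes was lower in edgeR (0 at an unadjusted p under 0.05 and 0 called by DESeq2). The stearoyl-CoA desaturase genes, whose products put a double bond into fatty acids, had the largest differences. Scd2 (ENSMUSG00000025203, chromosome 19 of GRCm38, 44293674 to 44306864) was at 1894, 1851 and 2089.6 CPM in 2iL and 197 in SL (log2 fold change 3.3, SE 0.27, adjusted p = 8.64e-05 in edgeR). Scd1 was at 413, 438 and 503 CPM in 2iL and 56.6 in SL (log2 fold change 3.0, SE 0.23, adjusted p = 5.65e-05 in edgeR). The 3 2iL libraries lay close together for both. Fatty acid synthase, Fasn, was at 917, 876 and 850.5 CPM in 2iL and 244 in SL (log2 fold change 1.86, SE 0.21, adjusted p = 4.14e-04 in edgeR). Acly, which makes its substrate acetyl-CoA, was at 801, 763 and 865 CPM in 2iL and 449 in SL. Srebf1, the transcription factor of this pathway, was higher, at 114, 119 and 137 CPM in 2iL and 41.2 in SL. Srebf2, its counterpart for cholesterol, was at 179, 149 and 193 CPM in 2iL and 145 in SL and did not pass the threshold (log2 fold change 0.25). In the cholesterol pathway, squalene epoxidase, Sqle, was at 173, 175 and 168 CPM in 2iL and 67.1 in SL (log2 fold change 1.36, SE 0.17, adjusted p = 5.88e-04 in edgeR). Insig1, which holds back the processing of SREBP proteins when sterols abound, was at 153, 203 and 217 CPM in 2iL and 75.8 in SL. Both were higher in 2iL. SL was below all 3 2iL libraries for 20 of the 26 genes of the cholesterol list and above all 3 for none. Soat1, which esterifies cholesterol for storage, was lower, at 10.5, 8.08 and 11.4 CPM in 2iL and 56.3 in SL (log2 fold change -2.49, SE 0.20, adjusted p = 7.79e-05 in edgeR). The efflux transporters Abca1, at 108, 116 and 129 CPM in 2iL and 71.7 in SL, and Abcg1, at 19.3, 23.5 and 34.5 CPM in 2iL and 11.9 in SL, were higher. The sterol regulatory element TCACNCCAC was in 1 of 22 windows of the cholesterol list (4.55%), against 1.21% of windows of tested genes. In the fit with all 45 libraries, 8 of 11 calls of the fatty acid synthesis genes, 12 of 14 calls of the cholesterol synthesis and uptake genes and 2 of 4 calls of the cholesterol efflux genes were lost, among them those of Abca1, Abcg1, Acly, Insig1, Scd1 and Scd2. The calls of Abca1 and Insig1 were also lost with the spread over the day 0 and day 1 libraries, and that of Abcg1 with only genes of at least 10 CPM. Of the 14 calls of the cholesterol synthesis and uptake genes, 9 were lost with the spread over the day 0 and day 1 libraries.

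Serine synthesis and ATF4 response genes were lower in part. Of 34 tested, 15 were lower and 1, Shmt1, was higher (47.1% called, against 30.8% of all genes), with a median of -0.52. The factor Atf4 itself was at 207, 223 and 287 CPM in 2iL and 267 in SL and did not pass the threshold (log2 fold change -0.16). Stress response targets were among the lower genes. Chac1, which degrades glutathione, was at 2.38, 3.13 and 7.17 CPM in 2iL and 25 in SL (log2 fold change -2.58, SE 0.45, adjusted p = 0.0032 in edgeR). The pseudokinase gene Trib3 was at 10.8, 11.7 and 18.1 CPM in 2iL and 38.3 in SL, and Ddit3, the factor Chop, was at 4.06, 4.56 and 4.48 CPM in 2iL and 15 in SL (log2 fold change -1.78, SE 0.25, adjusted p = 0.00103 in edgeR). Of the serine and one-carbon enzymes, Psph was at 19.3, 26.5 and 26.6 CPM in 2iL and 41.1 in SL and Mthfd2 at 40.1, 52.2 and 69.3 CPM in 2iL and 122 in SL, both lower. Phgdh, the first enzyme of serine synthesis, was at 67, 84.1 and 101 CPM in 2iL and 129 in SL and Psat1, the next, at 282, 338 and 361 CPM in 2iL and 268 in SL, and neither passed the threshold. Shmt2, at 139, 161 and 185 CPM in 2iL and 185 in SL, did not pass it either. The cystathionine lyase gene Cth, which makes cysteine, was lower, at 73.7, 105 and 73.1 CPM in 2iL and 244 in SL. The amino acid transporter gene Slc7a5 was lower as well, at 106, 99.8 and 139 CPM in 2iL and 209 in SL. Taking the spread from all 45 libraries ended 14 of the 16 calls of this list, among them those of Chac1, Cth, Mthfd2, Psph, Shmt1, Slc7a5 and Trib3. The call of Psph was also lost with the spread over the day 0 and day 1 libraries, and that of Shmt1 with library totals alone. Phgdh passed the threshold with DESeq2's Wald test, with library totals alone, with no filter on low counts and without the 2iL Neural library.

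The ATF4 element TGATGNAA was looked for on both strands in 36 windows of 30 genes of this list and found in 9 (25%), against 2.29% of windows of tested genes. Of the 9 genes with a match, 5 were lower in 2iL and 4 did not pass the threshold, and of the 21 without, 8 were lower, 1 higher and 12 did not pass it. Stretches of 4 lower genes are shown, with the element or its reverse complement in capitals: Chac1 at chr2:119351009-119351096 on the plus strand, and on the minus strand Trib3 at chr2:152344011-152344086, the stress factor Atf3 at chr1:191183396-191183483 and the cystine transporter Slc7a11 at chr3:50443613-50443719, which holds it in both orientations, all on GRCm38.p6. Slc7a11 was at 0.206, 0.456 and 0.249 CPM in 2iL and 1.92 in SL and Atf3 at 1.44, 0.847 and 1.49 CPM in 2iL and 4.79 in SL.
Chac1: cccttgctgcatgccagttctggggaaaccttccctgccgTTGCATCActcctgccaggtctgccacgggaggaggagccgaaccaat
Trib3: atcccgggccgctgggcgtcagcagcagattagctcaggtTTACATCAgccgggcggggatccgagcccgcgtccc
Atf3: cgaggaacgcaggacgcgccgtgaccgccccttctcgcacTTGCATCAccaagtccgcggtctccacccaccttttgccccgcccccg
Slc7a11: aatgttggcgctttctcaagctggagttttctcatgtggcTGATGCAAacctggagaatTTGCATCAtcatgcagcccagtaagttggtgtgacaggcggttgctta

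Genes of glycolysis were called in both directions. Of 24 glycolysis enzymes and transporters, 3 were higher and 4 lower, with a median of -0.22, or 29.2% called, near the 30.8% of all genes. Gapdh, at 3492, 3352 and 4131 CPM in 2iL and 3039 in SL, and Pkm, at 1813, 1644 and 2019 CPM in 2iL and 2047 in SL, did not pass the threshold. Phosphofructokinase subunits went both ways, with Pfkl lower, at 103, 80.3 and 103 CPM in 2iL and 236 in SL, and Pfkp higher, at 203, 245 and 255 CPM in 2iL and 148 in SL. Pdk1, a kinase that inhibits pyruvate dehydrogenase, was at 28.3, 40.2 and 29.3 CPM in 2iL and 226 in SL (log2 fold change -2.8, SE 0.20, adjusted p = 4.18e-05 in edgeR). The collagen hydroxylase gene P4ha2, another target of hypoxia, was at 3.64, 3.84 and 3.34 CPM in 2iL and 36.6 in SL (log2 fold change -3.34, SE 0.21, adjusted p = 2.48e-05 in edgeR). Among 19 hypoxia response genes tested, 6 were lower and 3 higher, or 47.4% called, against 30.8% of all genes. The histone demethylase gene Kdm3a, also a hypoxia target, was higher, at 499, 476 and 366 CPM in 2iL and 116 in SL (log2 fold change 1.95, SE 0.24, adjusted p = 5.72e-04 in edgeR). Hif1a was at 169, 171 and 176 CPM in 2iL and 189 in SL and did not pass the threshold (log2 fold change -0.14). Of 82 nuclear oxidative phosphorylation genes tested, 5 were higher and 3 lower, or 9.76% called, against 30.8% of all genes. Of the 13 mRNAs of the mitochondrial genome none passed the threshold in edgeR, with 1 at an unadjusted p under 0.05 and 0 called by DESeq2, and the 2iL libraries differed among themselves, as in mt-Nd5 with 2930.0, 1667 and 932 CPM in 2iL and 1076 in SL, which passed the threshold without the 2iL Neural library. With the spread over all 45 libraries, 6 of 7 calls of the glycolysis enzymes, 4 of 9 calls of the hypoxia response genes and 2 of 8 calls of the nuclear oxidative phosphorylation genes were lost, among them those of Pfkl and Pfkp. The call of Pfkl was also lost with the spread over the day 0 and day 1 libraries, and that of Pfkp with library totals alone, with only genes of at least 10 CPM and with the spread over the day 0 and day 1 libraries. Of the 7 calls of the glycolysis enzymes, 4 were lost with the spread over the day 0 and day 1 libraries. Of the 8 calls of the nuclear oxidative phosphorylation genes, 3 were lost without the 2iL EB library.

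Of 26 iron, metal and oxidative stress genes, 6 were higher and 5 lower, or 42.3% called, against 30.8% of all genes. The transferrin receptor gene Tfrc, which brings in iron, was at 679.6, 732 and 645 CPM in 2iL and 229 in SL (log2 fold change 1.58, SE 0.21, adjusted p = 7.54e-04 in edgeR). The ferritin genes Fth1, at 109, 72.2 and 92.2 CPM in 2iL and 179 in SL, and Ftl1, at 343, 366 and 503 CPM in 2iL and 710.0 in SL, which store it, were lower. The antioxidant enzymes Gpx1, at 302, 336 and 371 CPM in 2iL and 85.1 in SL (log2 fold change 1.98, SE 0.20, adjusted p = 2.36e-04 in edgeR), and Sod2, at 239, 279 and 257 CPM in 2iL and 108 in SL, were higher. Sod1, Cat and Prdx1 did not pass the threshold (log2 fold changes -0.17, -0.15 and -0.02). The spread over all 45 libraries ended 7 of the 11 calls of this list, among them that of Ftl1. The call of Ftl1 was also lost without the 2iL EB library.

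**Figure D5:**
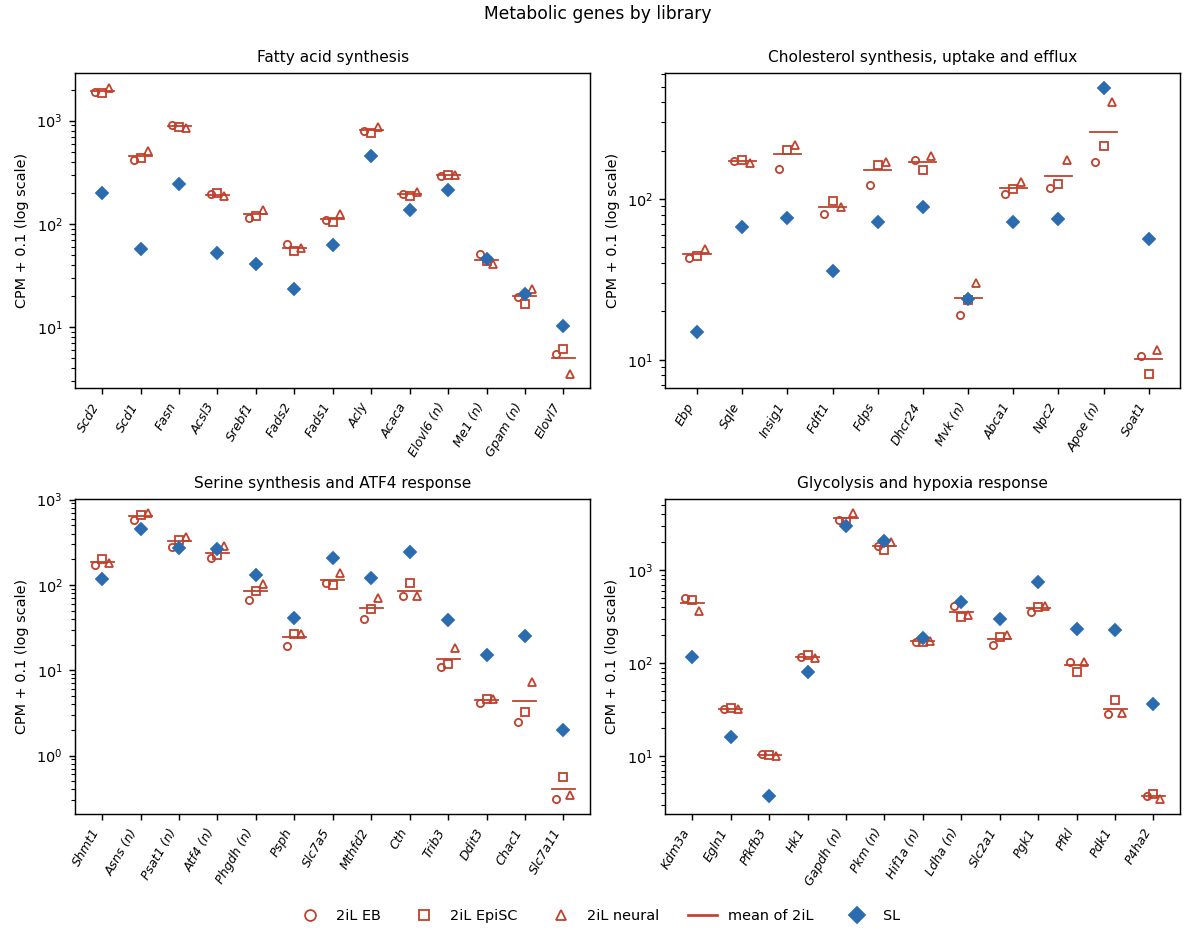
CPM with 0.1 added, on log axes, of lipid, serine and ATF4, glycolysis and hypoxia genes, with the 3 2iL libraries as open red symbols, their mean as a red line and the SL library as a blue diamond; (n) marks genes that did not pass the threshold. Scd2, Scd1 and Fasn lie above SL in all 3 2iL libraries, and Soat1, Chac1, Pdk1 and P4ha2 below it.

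Genes that govern the start of the cell cycle were called in both directions. Of 27 G1 cyclins, Cdk inhibitors and Myc genes, 12 were higher and 4 lower (59.3% called, against 30.8% of all genes). The Myc family was split. Mycl was at 42.3, 39 and 44.5 CPM in 2iL and 5.69 in SL (log2 fold change 2.88, SE 0.21, adjusted p = 5.04e-05 in edgeR), and Mycn was higher too, at 52.5, 60.9 and 58.5 CPM in 2iL and 36.6 in SL. Myc was lower, at 2.0, 1.04 and 1.59 CPM in 2iL and 8.14 in SL. The D-type cyclins were split as well, with Ccnd1 higher, Ccnd2 lower, at 0.823, 0.13 and 0.996 CPM in 2iL and 11.2 in SL, and Ccnd3, at 165, 185 and 215 CPM in 2iL and 206 in SL, not past the threshold. Cdk4, the kinase of these cyclins, was higher, at 376, 423 and 429.7 CPM in 2iL and 234 in SL. The Cdk inhibitor gene Cdkn1a, p21, was higher too, at 87.3, 48.7 and 72.2 CPM in 2iL and 28.4 in SL, whereas Cdkn1c, given with the imprinted genes, was lower. The retinoblastoma gene Rb1, whose product Cdk4 inactivates, was lower, at 11.8, 11.3 and 7.52 CPM in 2iL and 24.8 in SL. Of 24 p53 target genes, 5 were higher and 5 lower, or 41.7% called, against 30.8% of all genes. Trp53 itself was higher, at 321, 256 and 319 CPM in 2iL and 158 in SL, and so was Sesn1, a stress response target, at 39.4, 39.7 and 40.4 CPM in 2iL and 13 in SL. The pro-apoptotic genes Pmaip1, at 5.67, 6.19 and 4.93 CPM in 2iL and 31.9 in SL, and Bbc3, at 9.73, 8.73 and 8.37 CPM in 2iL and 18.1 in SL, were lower. Mdm2, which degrades p53, did not pass the threshold (log2 fold change -0.37). When the spread came from all 45 libraries, 11 of 16 calls of the G1 cyclins, Cdk inhibitors and Myc genes and 5 of 10 calls of the p53 target genes fell away, among them those of Bbc3, Ccnd2, Cdkn1a, Myc and Mycn. The call of Mycn was also lost with the spread over the day 0 and day 1 libraries.

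Hox genes, which pattern the body axis, were near silent in SL and low in 2iL. Of 39, 23 were tested, and 15 of these were higher in 2iL (65.2% called, against 30.8% of all genes). None was lower in edgeR (0 at an unadjusted p under 0.05 and 0 called by DESeq2), and the median was 2.64. The sum of the 39 was 76.8, 69.4 and 71.7 CPM in 2iL and 15.9 CPM in SL. Hoxc13 was at 11.3, 7.82 and 10.8 CPM in 2iL and 3.14 in SL and Hoxb9 at 6.47, 6.9 and 6.82 CPM in 2iL and 1.01 in SL, so that genes of several clusters and positions were among the higher ones. Hoxa3, Hoxc5 and Hoxc12 had no read in SL, and with SL set to 3 counts they were at least 12.7-, 7.54- and 10.8-fold higher in 2iL. Of 18 retinoic acid pathway genes tested, 4 were higher and 4 lower, or 44.4% called, against 30.8% of all genes. The receptor gene Rarb was higher, at 4.53, 3.06 and 4.98 CPM in 2iL and 0.373 in SL, and the receptor gene Rarg lower, at 80.2, 42.7 and 58.7 CPM in 2iL and 153 in SL. In the fit with all 45 libraries, 14 of 15 calls of the Hox cluster genes and 7 of 8 calls of the retinoic acid pathway genes were lost, among them those of Hoxa3, Hoxb9, Hoxc13, Hoxc5, Rarb and Rarg. The call of Rarb was also lost with the spread over the day 0 and day 1 libraries. Of the 15 calls of the Hox cluster genes, 7 were lost with the spread over the day 0 and day 1 libraries. Of the 8 calls of the retinoic acid pathway genes, 5 were lost with the spread over the day 0 and day 1 libraries and 3 without the 2iL EpiSC library.

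Protocadherin entries have to be read as shared counts. Of 23 entries of the clustered protocadherin genes tested, 19 were higher in 2iL, by log2 fold changes close to the median of 0.61, but the gamma genes share their last exons, and 9 of them, such as Pcdhga1 and Pcdhgb1, carry the same counts in all 4 libraries, at 52.6, 43.6 and 49.5 CPM in 2iL and 31.9 in SL. They are therefore close to 1 measurement, which lost its call in 18 of the 19 entries with library totals alone and in all 19 with the wider spread. It was lost in 19 with the spread over the day 0 and day 1 libraries, in 17 with only genes of at least 10 CPM and in 15 without the 2iL EB library. Few genes of the basic cell machinery passed the threshold. Of 87 cytosolic ribosomal protein genes tested, 4 were higher and 1 lower (5.75% called, against 30.8% of all genes), and 2 of the higher ones, Rpl10l and Rpl39l, at 42.3, 54.4 and 61.2 CPM in 2iL and 7.93 in SL, are retrocopies known for testis expression. Of 69 entries of replication-dependent histone genes, whose mRNAs carry no poly(A) tail and are kept by ribosomal RNA depletion, 3 were higher and none lower in edgeR (1 at an unadjusted p under 0.05 and 0 called by DESeq2), with near-identical copies that can share reads. That is 4.35% of the histone entries called, against 30.8% of all genes. Of 5 genes of the X inactivation centre and its regulators tested, 4 were lower in 2iL, Ftx, Rlim, Tsx and Xist (80% called, against 30.8% of all genes). None was higher in edgeR (0 at an unadjusted p under 0.05 and 0 called by DESeq2). Rlim was at 178, 164 and 146 CPM in 2iL and 327 in SL. Ftx had few reads, at 1.53, 1.43 and 0.648 CPM in 2iL and 5.59 in SL. The remaining gene tested had a log2 fold change of 0.52 and did not pass the threshold. Of the 5 ribosomal protein calls, 3 were lost with the spread over all 45 libraries, among them that of Rpl39l. So were 1 of the 3 histone calls and 2 of the 4 calls of the X inactivation centre, those of Ftx and Rlim. DESeq2 did not call Xist.

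Beyond the lists, the 15 genes with the largest fold in each direction among well counted genes (mean of both media at least 20 CPM) were taken by rule. Higher in 2iL, after Plagl1, came Xlr3c, Xlr3b and Xlr3a, near-identical X-linked copies whose reads can be shared, and then Aurkc, a kinase of meiosis, at 48, 31.3 and 49.4 CPM in 2iL and 1.38 in SL. Crxos, a homeobox gene, was at 119.5, 114 and 82.7 CPM in 2iL and 5.37 in SL (log2 fold change 4.29, SE 0.30, adjusted p = 4.18e-05 in edgeR). Meis2, a cofactor of Hox proteins, was at 60.4, 59.3 and 63.5 CPM in 2iL and 3.35 in SL (log2 fold change 4.18, SE 0.22, adjusted p = 1.88e-05 in edgeR). The noncoding RNA 2310043M15Rik was at 36.6, 38.8 and 40.7 CPM in 2iL and 2.34 in SL. In these genes SL stood at a small share of the 2iL level. The surface antigen gene Ly6a was at 61.3, 52.5 and 39.7 CPM in 2iL and 3.67 in SL, and the adaptor gene She was at 46.8, 53 and 55.8 CPM in 2iL and 3.73 in SL. Aqp3, a water and glycerol channel, was at 188, 197 and 334 CPM in 2iL and 20.1 in SL, with the highest value in the 2iL Neural library. Oas1a, an antiviral sensor, was at 63.6, 73 and 77.8 CPM in 2iL and 6.12 in SL. Mir5114 was counted at 110.1, 116 and 119 CPM in 2iL and 9.9 in SL, but its 61-base hairpin lies within Scd2 on the same strand, so these reads belong with those of Scd2. Lower in 2iL, beside genes already given, was the Hippo pathway scaffold gene Amot, at 2.26, 0.977 and 1.54 CPM in 2iL and 43.2 in SL (log2 fold change -4.68, SE 0.31, adjusted p = 3.61e-05 in edgeR). The ubiquitin ligase gene Rnf128 was at 3.09, 1.63 and 1.3 CPM in 2iL and 52.8 in SL, the protease gene Capn2 at 2.29, 3.32 and 2.84 CPM in 2iL and 47.7 in SL and the calcium-binding protein gene S100a6 at 1.76, 3.52 and 2.54 CPM in 2iL and 40.2 in SL. For each of these SL lay above the range of the 2iL libraries. With the spread over all 45 libraries, Aqp3, Meis2 and Mir5114 no longer passed the threshold. The call of Aqp3 was also lost with the spread over the day 0 and day 1 libraries.

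The largest differences in read counts fell on abundant genes. Higher in 2iL was the chaperone gene Hspa8, at 3974, 4610.0 and 4229 CPM in 2iL and 2252 in SL (log2 fold change 0.92, SE 0.28, adjusted p = 0.0342 in edgeR). Scd2, Tfcp2l1, Fasn and Fn1 were others, and so was the branched-chain aminotransferase gene Bcat1, at 846, 847 and 978 CPM in 2iL and 269 in SL (log2 fold change 1.73, SE 0.22, adjusted p = 7.12e-04 in edgeR). The zinc finger genes Rex2, at 1446, 1288 and 1355 CPM in 2iL and 457 in SL, Zfp600, at 1350.2, 1197 and 1269 CPM in 2iL and 400.4 in SL, and Gm13242, at 1229.8, 1057 and 1079 CPM in 2iL and 476 in SL, are related genes that can share reads. Yam1 was at 1349, 592 and 1467 CPM in 2iL and 434 in SL and differed between the 2iL libraries by more than 2-fold. Over its whole length it overlaps the ribosomal RNA entry Rn18s-rs5, annotated on the opposite strand. Whether its reads come from ribosomal RNA left after depletion was not tested. A second entry named Yam1, inside this one on the opposite strand, had a 2iL mean of 7.14 CPM and 8.09 in SL. Lower in 2iL was the nuclear RNA Malat1, at 1637, 1651 and 1667 CPM in 2iL and 3182 in SL (log2 fold change -0.95, SE 0.22, adjusted p = 0.0109 in edgeR). Gm10116 was at 826, 863 and 1228 CPM in 2iL and 1678 in SL, and the ubiquitin ligase gene Mkrn1 was at 224, 222 and 258 CPM in 2iL and 798 in SL (log2 fold change -1.77, SE 0.17, adjusted p = 1.58e-04 in edgeR). Rbpj, the transcription factor of Notch signalling, was lower, at 206, 197 and 193 CPM in 2iL and 643 in SL (log2 fold change -1.69, SE 0.15, adjusted p = 1.32e-04 in edgeR), and so was the glycolytic enzyme gene Pgk1, at 356, 399.6 and 416 CPM in 2iL and 753 in SL. With the spread over all 45 libraries, Gm10116, Gm13242, Malat1, Pgk1, Scd2, Tfcp2l1 and Yam1 no longer passed the threshold. The call of Gm10116 was also lost without the 2iL EB library and without the 2iL EpiSC library, that of Hspa8 with library totals alone, with only genes of at least 10 CPM and without the 2iL EpiSC library, that of Pgk1 with the spread over the day 0 and day 1 libraries, and that of Yam1 with only genes of at least 10 CPM, with the spread over the day 0 and day 1 libraries, with DESeq2's Wald test and without the 2iL EB library.

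The differences were spread over the genome. On the autosomes and chromosome X, the median log2 fold change per chromosome lay between -0.12 (chromosome 15) and 0.11 (chromosome 6), and between 25.1% (chromosome 19) and 38% (chromosome 18) of the genes tested were called. On chromosome X, 93 of 567 were higher and 94 lower, and its median was 0.05. Among these chromosomes the share of genes higher in 2iL was largest on chromosome 18, with 78 of 376, and 19 of these 78 are protocadherin entries with shared reads. Of 239 lincRNA genes tested, 23 were higher and 25 lower (20.1% called), and of 13987 protein-coding genes 31.8% were called.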

How the data were processed

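The authors deposited raw read counts per gene: rRNA-depleted, strand-specific RNA-seq reads were trimmed, aligned to GRCm38 with TopHat2 and counted with featureCounts; per the labels DESeq2 was used later, but these counts carry no normalisation. Rows without a gene name (435) were left out. edgeR 4.0.16 in R 4.3.3 was run on the counts with TMM factors, filterByExpr and the quasi-likelihood test, with p-values adjusted by Benjamini-Hochberg over 14947 genes and a threshold of 0.05. Standard errors were derived from the log2 fold change and its test statistic. The residual degrees of freedom were 2, and with 1 SL library that group adds nothing to the spread. Alternatives included DESeq2 1.42.0. Tested on simulated counts of this comparison over 14499 genes, the step recovered 48% of 200 changed genes, with 7.46%, 44.8% and 92.4% at folds of 1.5, 2 and 4, and 13.5% of its calls were false. That share is above the nominal 0.05. The simulation drew SL with the spread fitted from 2iL and changed fewer genes than were called in the data. It therefore does not give the false share among the real calls. Intervals and floors of 3 counts cover counting error only. The 2iL libraries were numbered by accession order. Positions came from GENCODE M21 and promoter windows from RefSeq, both on GRCm38. The comparison and the gene lists were chosen with earlier results of these data known. Beyond list members, the genes named were the 15 with the largest fold in each direction at a mean of at least 20 CPM and the 10 with the largest CPM difference in each direction. Some list members are counted in their lists but not reported here by name.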

Additional observations from a re-analysis of the deposited data

How the results depend on the processing

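Across 10 alternatives the number of genes past the threshold stayed within 1.5 times of 4600 with 2 exceptions. Genes of at least 10 CPM in SL or 2iL, of which fewer were tested, gave 2615 (1171 higher and 1444 lower in 2iL), and the spread estimated over all 45 libraries gave 3047 (1327 higher and 1720 lower). Leaving out each 2iL library in turn gave 4177 to 5067 genes, with 1795 to 2280 higher and 2382 to 2787 lower, and SL has no library to leave out. Library totals alone gave 1624 higher and 2812 lower genes and moved the median of all genes to -0.0516, and DESeq2 gave 1961 and 1941. Of the 4600 calls, 2049 were kept in every alternative that tested the gene. The wider spread takes in differences between conditions at later days by construction. Of 254 named genes tested, 131 kept direction and side of the threshold in all alternatives, 100 lost a call in at least 1, mostly with that spread, 11 gained one (Dazl, Dnmt1, Esrrb, Etv5, Lef1, Otx2, Phgdh, Tcf7, Tet1, Tet2 and mt-Nd5), and 12 that had not passed the threshold changed sign near 0: Ctnnb1, Dppa2, Eomes, Hormad1, Klf4, Lamc1, Lifr, Meg3, Prdx1, Rian, Smad5 and Sox2. The cause was not tested. With no filter the log2 fold change was 0.0172 for Klf4, 0.0204 for Lamc1, 0.00103 for Lifr, 0.0164 for Prdx1 and 0.0219 for Smad5. With the spread of all 45 libraries the log2 fold change was 0.0375 for Klf4, 0.0395 for Lamc1, 0.0199 for Lifr, 0.0367 for Prdx1 and 0.0409 for Smad5. With the spread of day 0 and day 1 the log2 fold change was 0.0110 for Klf4, 0.0135 for Lamc1, 0.0109 for Prdx1 and 0.0155 for Smad5. With library totals alone the log2 fold change was -0.00211 for Ctnnb1 and -0.0205 for Sox2. With genes of at least 10 CPM the log2 fold change was -0.0239 for Ctnnb1 and -0.0387 for Sox2. Leaving out a 2iL library in turn gave -0.0956 to 0.25 for Dppa2, -0.40 to 0.00566 for Eomes, -0.0161 to 0.27 for Hormad1, -0.0992 to 0.0877 for Klf4, -0.13 to 0.0663 for Lamc1, -0.11 to 0.0819 for Lifr, -0.15 to 0.46 for Meg3, -0.10 to 0.0395 for Prdx1, -0.13 to 0.63 for Rian, -0.0559 to 0.0702 for Smad5 and -0.0429 to 0.14 for Sox2. With genes of at least 10 CPM alone the medians of the cholesterol efflux and fibroblast lists turned to 0.38 and 0.77, with few members left. No paired analysis was possible because replicate numbers were given in accession order and SL has 1 library. At the shallowest library 3 counts correspond to 0.195 CPM, which limits what is said of genes near that level.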

Other observations

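By mean abundance, 28.1% of genes up to 1 CPM were called, 37.3% from 1 to 10 CPM, 29.7% from 10 to 100 CPM, 23.6% from 100 to 1000 CPM and 7.69% of the 78 genes over 1000 CPM. Among short noncoding RNAs, 12 of 151 miRNA entries tested were higher in 2iL and 6 lower, and of 93 snoRNA entries 7 were higher and 1 lower. Such entries can take reads of the transcripts they lie in, and neither the size selection nor the counting was made for them.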
